A study of Mus musculus with 12 samples.

Results

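The loci described here are mouse cDNA clone loci that the deposited read-count table lists beside its genes. Each is a row named for a FANTOM3 clone, a full-length cDNA of the RIKEN collection placed on the genome, and each was kept where its interval overlapped no gene row of the same table on either strand. Of 33353 clone rows, 7748 (23.2%) met this rule, against 23472 gene rows and 56825 rows in all. The other 25605 clone rows lie within the span of a gene row. The 7748 loci form 6703 clusters, since 1824 of them overlap another locus and can share its reads.

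The libraries came from male C57BL/6 mice given CCl4 intraperitoneally at 0.6 µl per g body weight, as 15% in olive oil, 2 times a week for 6 weeks from 6 to 8 weeks of age, or olive oil alone. The age label is 12 to 14 weeks for every library, and no transgene or mutation is named. Sinusoidal endothelial cells (SEC) and hepatic stellate cells (HSC) were taken from the liver by collagenase perfusion and a density gradient, the SEC with a further step of magnetic beads, which gave 4 groups of 3 libraries. Oil controls are Q-SEC and Q-HSC, and CCl4-treated mice gave F-SEC and F-HSC. No label ties a library to a mouse, so p-values speak only for the scatter among the libraries sequenced, 3 per group. Part or all of this scatter may be technical. The main edgeR fit shared its estimate of spread over all 4 groups.

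CCl4 is turned into a radical by hepatocytes, and repeated doses scar the liver. Stellate cells then become matrix-producing myofibroblasts, and sinusoidal endothelium loses its fenestrae and becomes more like common capillary lining. A cDNA clone outside a gene row can be one of several things. It may be an independent long non-coding RNA, a long 3′ end of the gene next to it, a transcript fired in the opposite direction from a gene's promoter, or a copy of unspliced precursor RNA primed at a run of A within an intron. A hexamer AATAAA or ATTAAA a short way before the end is the usual signal for cleavage and polyadenylation, so the last bases of a clone bear on which of these it may be.

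The last 60 bases are shown for the clones named below that GENCODE lists as long non-coding genes and whose end could be placed, with AATAAA in capitals where a search found it. All are from GENCODE M21 transcripts on GRCm38, written 5′ to 3′ on the strand of the transcript. The first pair rose with CCl4, 5033428I22Rik at chr8:57335039-57335098 (+) and 4930430E12Rik at chr4:6352105-6352164 (-). The next 3 fell, Gm37381 at chr1:3984225-3984284 (-), Gm31693 at chr3:21712401-21712460 (+) and Gm44620 at chr8:24449924-24449983 (+). The last 6 differed between the cell fractions or in their CCl4 change between them. They are Gm43181 at chr5:43784046-43784105 (-), Gm26802 at chr7:19298260-19298319 (-), Gm49087 at chr14:43979713-43979772 (-), Gm48435 at chr10:121351585-121351644 (+), Gm36723 at chr12:25386672-25386731 (+) and Gm46224 at chr10:51531100-51531161 (+), the last with 2 transcript bases beyond the clone.
fantom3_D430027E22: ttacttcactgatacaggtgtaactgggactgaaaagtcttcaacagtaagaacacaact
fantom3_4930430E12: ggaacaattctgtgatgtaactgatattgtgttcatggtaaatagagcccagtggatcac
fantom3_7420431G04: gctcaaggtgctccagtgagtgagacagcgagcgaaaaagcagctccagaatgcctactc
fantom3_4930505F22: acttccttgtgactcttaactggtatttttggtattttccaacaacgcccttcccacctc
fantom3_G530150C10: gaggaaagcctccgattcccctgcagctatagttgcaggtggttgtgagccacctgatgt
fantom3_F630314A02: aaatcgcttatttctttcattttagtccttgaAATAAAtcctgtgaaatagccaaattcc
fantom3_4930431D12: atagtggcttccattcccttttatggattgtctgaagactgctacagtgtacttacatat
fantom3_A430056H03: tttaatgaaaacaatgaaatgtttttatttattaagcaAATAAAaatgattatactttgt
fantom3_9530013E20: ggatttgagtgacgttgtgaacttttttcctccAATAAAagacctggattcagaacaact
fantom3_C920021A13: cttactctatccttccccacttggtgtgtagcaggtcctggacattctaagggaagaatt
fantom3_F830216H09: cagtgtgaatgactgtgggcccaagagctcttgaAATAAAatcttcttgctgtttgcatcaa

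The hexamer AATAAA stands in 4 of these 11 ends, all of them among the last 6. Over all loci in long non-coding exons, the end of 2748 of 2999 could be placed in a GENCODE transcript, and 1479 (53.8%) had AATAAA or ATTAAA within the last 40 bases. The share was 87 of 166 (52.4%) among loci that fell in F-HSC and 95 of 180 (52.8%) among tested loci that did not. It was 7076 of 18921 (37.4%) over all GENCODE long non-coding transcripts, many of which were built from such clones. Of 358 clone ends with 20 more transcript bases behind them, 96 (26.8%) were followed by 6 A in a row, as were 0.987% of all 20-base windows of these transcripts.

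A promoter is shown for a locus that points away from its neighbour gene. Clone fantom3_9330119M12 starts at position 44105928, inside the 300-base promoter window of Enpp4 at chr17:44105760-44106059 (RefSeq, GRCm38.p6), and runs away from it on the opposite strand. The sequence is written on the strand of Enpp4 (-) from 250 bases before to 50 bases after its start, with CCAAT and GGGCGG (printed as its complement CCGCCC) in capitals. Both strands were searched, for these motifs and for TATAAA.
fantom3_9330119M12: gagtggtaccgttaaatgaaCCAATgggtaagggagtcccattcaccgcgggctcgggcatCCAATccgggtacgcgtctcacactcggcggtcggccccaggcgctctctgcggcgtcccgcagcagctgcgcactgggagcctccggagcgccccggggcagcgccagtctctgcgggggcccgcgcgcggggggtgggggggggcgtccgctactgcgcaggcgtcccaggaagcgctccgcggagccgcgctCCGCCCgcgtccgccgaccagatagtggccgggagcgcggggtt

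The Enpp4 window holds 41 CpG and no TATAAA. The 567 promoters with a clone locus running away within 1 kb upstream had a median of 24 CpG (quartiles 17 and 33), against 7 (3 and 21) over 27025 genes. GGGCGG was in 69.1% of them and TATAAA in 3.88%, against 35.7% and 13.6% of all 32851 promoters. CCAAT was in 36.9% of them and 37.4% of all.

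The libraries held 8714228 to 13068564 counts in gene rows, to which all levels below are scaled as CPM (reads of a row relative to 1e+06 gene-row reads) after TMM factors of 0.899 to 1.09. At this depth 3 reads are worth 0.228 to 0.335 CPM. The labelled cell types were read against marker lists, none of whose measured genes was at 0 in any group. Summed sinusoidal endothelial markers (10 of 10 genes) were 25271 to 29514 CPM in Q-SEC, 8923 to 12595 in F-SEC, 8603 to 11445 in Q-HSC and 2316 to 4602 in F-HSC. Stellate markers (10 of 10) were 795 to 3816 CPM in Q-HSC and 389 to 3138 in Q-SEC, which overlap, and 1607 to 2287 in F-HSC and 2851 to 5300 in F-SEC, where the order goes against the labels. Macrophage markers (8 of 9) were 6054 to 17294 CPM in Q-HSC and 3827 to 9759 in F-HSC, against 193 to 729 in Q-SEC. Myofibroblast markers (7 of 7) were 45.3 to 375 CPM in Q-SEC and 9221 to 24660 in F-SEC, and 109 to 616 in Q-HSC and 3992 to 10367 in F-HSC. Hepatocyte markers (6 of 6) were 2118 to 5630 CPM in Q-HSC and 10496 to 25438 in F-HSC. The ribosomal precursor row Rn45s took 1.20% to 12.6% of gene counts. In bulk libraries, fewer cells of a type and less RNA per cell cannot be told apart.

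The name of these loci needs a limit, since being outside the gene rows of the table is not being outside every gene. In GENCODE M21, 4068 of the 7748 loci (52.5%) overlap an exon on the same strand, and 346 an exon on the opposite strand. Another 641 lie in an intron of the same strand and 192 in one of the opposite strand. No GENCODE gene overlaps 2501 (32.3%). By gene type, 1842 overlapped a lincRNA and 1630 a protein-coding gene. The loci were 30 to 7614 bases long, with a median of 1626 bases, and 2360 (30.5%) were spliced. Their median distance to the nearest gene row was 10609 bases (quartiles 1592 and 56080). Of the 1554 within 1 kb of a gene row, 882 lay upstream on the opposite strand and 480 downstream on the same strand.

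Few of them were abundant. Of the 7748 loci, 1773 (22.9%) had no read in any library, which allows a level of up to 0.228 to 0.335 CPM per library, and 5975 had at least 1. In single libraries 4002 to 4176 loci had a read in the SEC fraction, 4167 to 4378 in Q-HSC and 3657 to 3947 in F-HSC. The filter on low counts left 1714 loci for testing (22.1%), in 1410 clusters, among 16203 rows. Their median level was 2.06 CPM (quartiles 1.09 and 5.98), 1233 (71.9%) stood under 5 CPM, 289 had a mean of 10 CPM or more and 34 of 100 or more. A locus can pass this filter through the group in which it is high, so the counts of tested loci below are read beside sums that use all 7748.

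Several of the highest levels per length came from known transcripts that the gene rows leave out. Rows on chromosome M, where the table has no gene row, led the list. fantom3_1010001E19, at position 1094 to 2673, is the large mitochondrial ribosomal RNA mt-Rnr2 and had a mean of 1760 CPM per kb. fantom3_D830037B04 is the small ribosomal RNA mt-Rnr1, at 1125 CPM per kb. fantom3_D030018G08 and fantom3_I420007J21 run on the strand opposite to mt-Nd3 and mt-Nd6, genes of respiratory complex I, at 1119 and 773 CPM per kb. Whether the counting used strand is not given in the sources used here, so these reads cannot be told from those of the genes themselves. fantom3_D030018G08 was at 535 to 615 CPM in Q-SEC and 898 to 1506 in Q-HSC, with no overlap. The log2 difference was -1.04 ± 0.28 (approximate SE, edgeR adjusted p = 0.0163).

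Among nuclear loci the leader was fantom3_A130040M12 (mm10, chr11:86811828-86814524, -), which overlaps no GENCODE gene and lies 4168 bases upstream of Dhx40, a helicase gene. It was at 1479 to 1706 CPM in Q-SEC, 1348 to 2133 in F-SEC, 1277 to 1707 in Q-HSC and 1006 to 1242 in F-HSC. None of the 4 comparisons of this locus passed the test, the nearest being F-SEC over F-HSC at 0.62 ± 0.22 log2 (edgeR adjusted p = 0.0575). fantom3_1200016E24 (chr13:21764550-21767823, -), in a stretch of histone genes and 10047 bases from Hist1h2bn, differed between the fractions. Its level was 779, 785 and 650 CPM in Q-SEC against 450, 223 and 280 in Q-HSC, which is 1.22 ± 0.28 log2 higher (edgeR adjusted p = 0.00773). It was also 0.94 ± 0.28 log2 higher in F-SEC than F-HSC (edgeR adjusted p = 0.0307). fantom3_E130111P11 (chr11:5555056-5557753, -), again with no GENCODE gene, had the same order, at 497, 529 and 423 CPM in Q-SEC and 254, 144 and 186 in Q-HSC (log2 1.31 ± 0.25, edgeR adjusted p = 0.00304). Neither moved with CCl4 past the threshold. Whether these loci share reads was not tested. fantom3_G730026I11 (chr19:4062439-4065879, -) stood at 428 to 988 CPM over the 9 libraries of Q-SEC, F-SEC and Q-HSC and at 408 to 692 in F-HSC, with no comparison called.

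Short loci on 2 known transcripts completed that list. fantom3_2810401A20, 152 bases in an exon of Maf, a transcription factor of sinusoidal endothelium and macrophages, fell from 82.9, 52.6 and 53.7 CPM in Q-HSC to 23.8, 23.3 and 15.9 in F-HSC (log2 -1.58 ± 0.36, edgeR adjusted p = 0.0084). The Maf row itself fell by 1.46 on the log2 scale. fantom3_2010205A11, 70 bases of the immunoglobulin kappa constant gene Igkc, made by plasma cells, ranged from 0.744 to 82.3 CPM over the 12 libraries. It was lower in Q-SEC than Q-HSC (log2 -3.92 ± 1.28, edgeR adjusted p = 0.0405). Its 3 values in F-HSC alone spread from 2.28 to 82.3 CPM, so no change with CCl4 could be read.

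**Figure D1:**
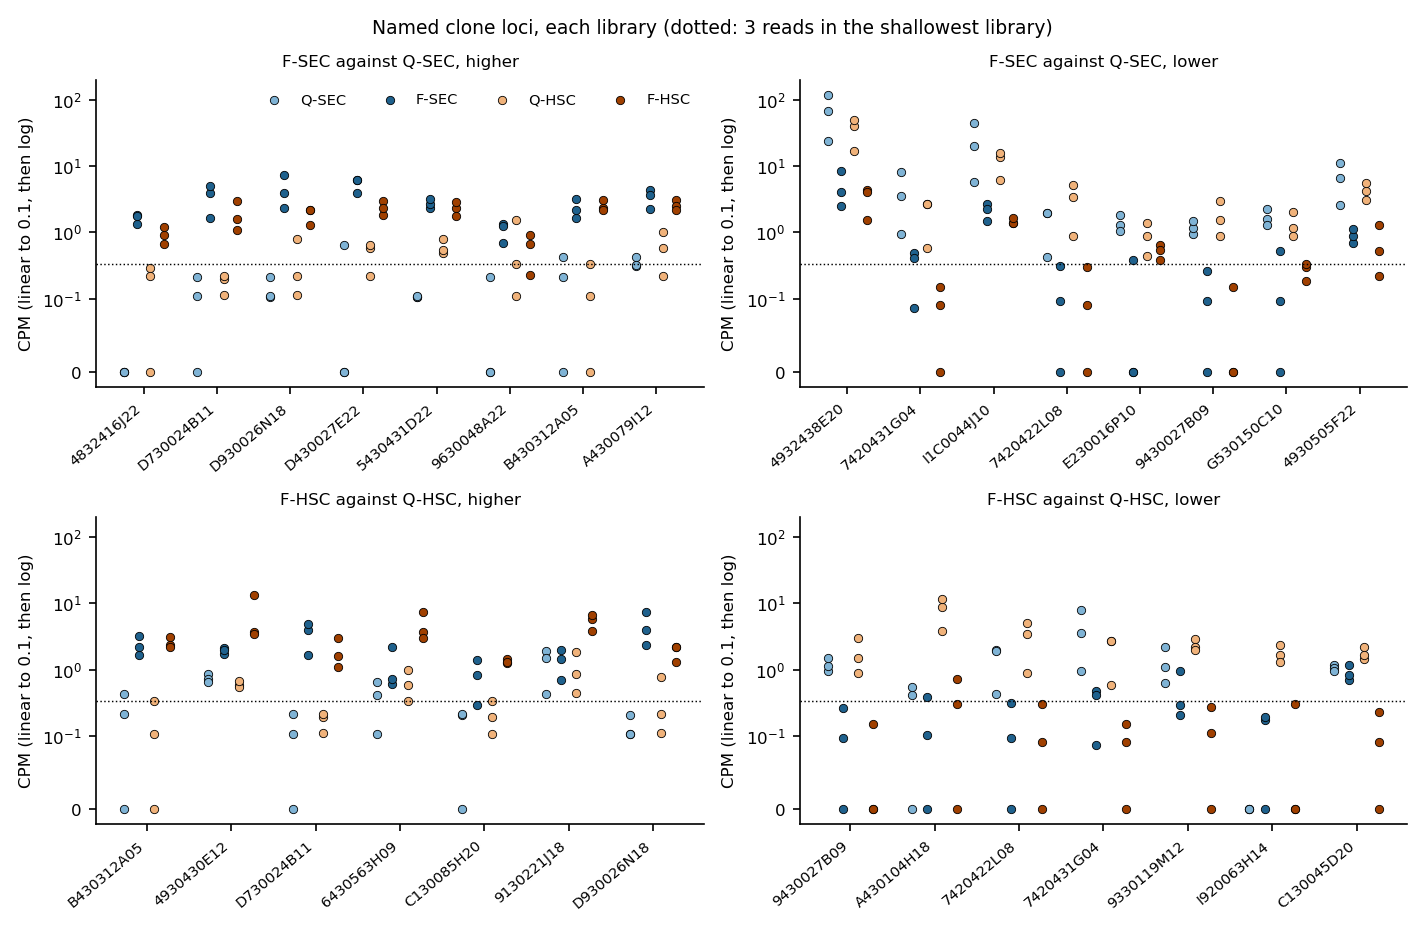
Each point is 1 library, the y axis is CPM (linear to 0.1, then logarithmic), and the 4 panels hold the loci with the largest called changes after CCl4 (8 per direction for SEC, 7 per direction for HSC). The dotted line is the level of 3 reads in the shallowest library; most of these loci sit under 10 CPM, fantom3_4932438E20 reaches 121, and the control and CCl4 points of the fraction named above each panel do not overlap.

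Far more of these loci were lower than higher with CCl4 in the SEC fraction. Of 1714 tested, 53 were higher and 375 lower in F-SEC than Q-SEC (edgeR adjusted p under 0.05), where 11% of all rows tested were called higher and 13.2% lower. The median log2 change was -0.61 over tested loci and -0.05 over gene rows, whose counts set the library scaling. Of the 53 that rose, 25 lay in exons that GENCODE gives to protein-coding genes, and 33 had a nearest gene row that was also called higher. Such exons held 563 of the 1714 tested loci and 119 of the 375 that fell. Of those 375, 140 had a nearest gene row that was also called lower. The share of all tested loci with a neighbour called higher is not given here. The plot of named loci gives each library of the largest changes.

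The largest rises included loci just past Vgll3 and Col6a2. fantom3_4832416J22 (chr16:65863527-65866360, +) lies 461 bases past the Vgll3 row, in a GENCODE exon of that gene, a cofactor of TEAD transcription factors. It had no read in any Q-SEC library and stood at 1.83, 1.35 and 1.75 CPM in F-SEC, which is at least 5.16-fold higher when each Q-SEC library is set at 3 reads (edgeR adjusted p = 0.00232). The Vgll3 row rose by 6.17 log2. fantom3_D730024B11 (chr10:76594109-76595117, -), spliced and 639 bases past Col6a2, a collagen VI chain, went from 0.212, 0 and 0.108 CPM to 4.0, 1.64 and 4.95. With 3 reads in Q-SEC, the ratio was 33.2 (95% exact counting interval 11.1 to 163), and the log2 change was 4.90 ± 0.73 (edgeR adjusted p = 0.00187). Col6a2 rose by 5.10 log2. Both loci were thus near or at 0 in control endothelium and followed their gene.

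fantom3_D930026N18 (chr6:118587240-118591528, -), past Cacna1c, the pore of the L-type calcium channel of muscle, rose from 0.106, 0.209 and 0.108 CPM to 2.35, 3.97 and 7.42 (log2 4.89 ± 0.71, edgeR adjusted p = 0.00161). fantom3_5430431D22 (chr2:16753748-16755838, +), in a 3′ exon of Plxdc2, a plexin-domain receptor gene, had 1 read in each Q-SEC library and stood at 2.35, 2.71 and 3.2 CPM in F-SEC. The ratio of reads was 25.7 (exact counting interval 8.50 to 127; edgeR adjusted p = 1.9e-04), and Plxdc2 rose by 4.60 log2. fantom3_B430312A05 (chr6:100807451-100810911, +), in an exon of Gxylt2, which adds xylose to Notch, rose from 0.212, 0 and 0.431 CPM to 3.22, 1.64 and 2.17 (log2 3.39 ± 0.72, edgeR adjusted p = 0.00803). All 3 loci also passed the test upward in F-HSC.

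A few rises were not 3′ ends of a coding gene. fantom3_D430027E22 (chr8:57332435-57335098, +) is the lincRNA 5033428I22Rik, 7918 bases past Hand2, a transcription factor of stellate cells whose row rose by 2.94 log2. The locus went from 0.637, 0 and 0 CPM to 6.18, 3.97 and 6.29 (log2 4.61 ± 0.77, edgeR adjusted p = 0.00304). fantom3_A430079I12 (chr4:129382761-129395673, +), spliced and outside every GENCODE gene, went from 0.425, 0.314 and 0.324 CPM to 4.35, 2.23 and 3.71 (log2 3.23 ± 0.48, edgeR adjusted p = 0.00188). Its nearest gene row, Zbtb8a, a zinc-finger gene 4733 bases away on the other strand, was at 15.4 to 16.5 CPM in Q-SEC and 15.8 to 16.8 in F-SEC, a log2 change of 0.03. fantom3_9630048A22, in an intron of Lrrc4c, had 2 reads in Q-SEC and 34 in F-SEC (ratio 15.2, exact counting interval 3.91 to 131). Its edgeR adjusted p was 0.0355, and this call was lost without Q-SEC 2 (0.113), Q-SEC 3 (0.113), F-SEC 1 (0.0541), F-SEC 2 (0.0727) or F-SEC 3 (0.0798). Summed myofibroblast markers were higher in F-SEC without overlap and summed stellate markers with overlap, as given above, and their part in these rises was not tested.

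The falls were led by loci with no gene annotation. fantom3_4932438E20 (chr18:4531906-4536055, -), 98874 bases from the nearest gene row and with no GENCODE gene, had the largest. It stood at 23.7, 121 and 67.2 CPM in Q-SEC and 2.52, 8.32 and 4.12 in F-SEC (log2 -3.82 ± 0.68, edgeR adjusted p = 0.00414). fantom3_I1C0044J10 (chrX:114328661-114332002, -), spliced and also with no GENCODE gene, fell from 5.74, 44.3 and 20.2 CPM to 1.48, 2.71 and 2.27 (log2 -3.44 ± 0.65, edgeR adjusted p = 0.00517). Within Q-SEC both loci were lowest in library 1 and highest in library 2, the order of the Rn45s share (4.0%, 9.59% and 5.43%). This order did not hold in HSC: fantom3_4932438E20 was at 16.9, 41.0 and 49.6 CPM in Q-HSC beside shares of 4.06%, 10.6% and 5.89%, and at 4.42, 4.02 and 1.54 in F-HSC beside 1.20%, 7.62% and 12.6%. In F-SEC the share was 5.12%, 7.45% and 4.50%, and its part in these falls was not tested.

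Long non-coding loci were among the falls as well. fantom3_7420431G04 (chr1:3984225-3985984, -), the spliced lincRNA Gm37381, went from 0.956, 8.05 and 3.56 CPM to 0.087, 0.484 and 0.412 (log2 -3.66 ± 0.89, edgeR adjusted p = 0.0150). fantom3_4930505F22 (chr3:21702815-21712460, +), the spliced lincRNA Gm31693, fell from 2.55, 11.2 and 6.69 CPM to 0.696, 0.871 and 1.13 (log2 -2.91 ± 0.60, edgeR adjusted p = 0.00728). Its nearest tested gene row, Tbl1xr1, a corepressor subunit 364192 bases off, rose by 0.56 log2. fantom3_G530150C10 (chr8:24447097-24449983, +), of Gm44620, fell from 2.23, 1.57 and 1.29 CPM to 0, 0.0967 and 0.516 (log2 -3.05 ± 0.72, edgeR adjusted p = 0.0125, and 0.0637 with only libraries 2 and 3). Fewer reads backed the remaining 3, fantom3_7420422L08 on chromosome 14, fantom3_E230016P10 past Hnrnpa3 and fantom3_9430027B09 past Bend4. These had Q-SEC means of 1.45, 1.38 and 1.21 CPM and F-SEC means of 0.135, 0.129 and 0.119.

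Calls in the SEC fraction leaned on single libraries. The count of called loci was 205 without Q-SEC 2, 221 without Q-SEC 3, 247 without F-SEC 1 and 178 without F-SEC 3, with 147 to 360 lower and 21 to 63 higher over all 12 omissions. Of the falls, fantom3_7420431G04 was lost without Q-SEC 2 (edgeR adjusted p = 0.0612), F-SEC 1 (0.0591) or F-SEC 3 (0.0515). fantom3_E230016P10 was lost without Q-SEC 3 (0.0562), F-SEC 1 (0.0525) or F-SEC 3 (0.0596). fantom3_9430027B09 was lost without Q-SEC 2 (0.0505), Q-SEC 3 (0.0649), F-SEC 2 (0.0551) or F-SEC 3 (0.0712). fantom3_7420422L08 was lost without Q-SEC 2 (0.111), Q-SEC 3 (0.109), F-SEC 1 (0.123), F-SEC 2 (0.0962), F-SEC 3 (0.0585), Q-HSC 2 (0.0625) or F-HSC 2 (0.0564), and in limma-voom (0.0749).

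In the HSC fraction the shift was wider. Of 1714 tested loci, 41 were higher and 795 lower in F-HSC than Q-HSC (edgeR adjusted p under 0.05), where 13.8% of all rows tested were called higher and 21.1% lower. The median log2 change was -0.99, against -0.02 over gene rows, which again set the scaling. Of the 375 loci lower in F-SEC, 316 (84.3%) were also lower in F-HSC, which is 39.7% of the 795. Another 20 were higher in both, and 2 were called in opposite directions. Over all tested loci, 46.4% were lower in F-HSC. The same overlap over gene rows is not given here, so the overlap is not shown to be particular to these loci. Each fraction has its own controls, but same-numbered F-SEC and F-HSC libraries deviated together (r = 0.47, 0.45 and 0.43). Q-SEC and Q-HSC did so at numbers 1 and 2 but not at 3 (r = 0.53, 0.50 and -0.01). Q-SEC 3 reached r = 0.49 with a Q-HSC library of another number. The fractions are thus not independent. With any 1 library left out, 552 to 854 loci were lower and 29 to 58 higher.

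Loci by Gxylt2, Col6a2 and Cacna1c were among the rises here too, beside the myofibroblast markers given above, whose part was not tested. fantom3_B430312A05 (Gxylt2) went from 0, 0.109 and 0.335 CPM to 2.36, 2.19 and 3.07 (log2 4.04 ± 0.76, edgeR adjusted p = 0.00335). fantom3_D730024B11 (Col6a2) went from 0.195, 0.217 and 0.112 to 1.60, 1.10 and 2.96 (log2 3.32 ± 0.70, edgeR adjusted p = 0.00536). fantom3_6430563H09 (chr7:96908627-96911088, +), 73 bases past Tenm4, a teneurin adhesion gene, went from 0.586, 0.978 and 0.335 to 7.39, 3.66 and 2.96 (log2 2.87 ± 0.64, edgeR adjusted p = 0.00686). Tenm4 rose by 2.54 log2, so locus and gene moved alike. fantom3_D930026N18 (Cacna1c) rose by 2.27 ± 0.63 log2 (edgeR adjusted p = 0.0183), a call lost without Q-HSC 2 (0.0601), Q-HSC 3 (0.0578) or F-HSC 3 (0.0536).

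Other rises were by genes with different roles. fantom3_9130221J18 (chr8:5083219-5085230, -), past Slc10a2, the sodium-dependent bile acid transporter, went from 1.86, 0.869 and 0.447 CPM to 3.81, 5.76 and 6.70 (log2 2.32 ± 0.58, edgeR adjusted p = 0.0114). Hepatocyte markers were higher in F-HSC as given above, cholangiocyte markers (3 of 3) were 16.9 to 47.3 CPM in Q-HSC and 27.7 to 105 in F-HSC, and the part of either was not tested. fantom3_4930430E12 (chr4:6352105-6357530, -), a spliced long non-coding RNA 8150 bases upstream of Sdcbp (syntenin), went from 0.586, 0.543 and 0.670 to 13.6, 3.66 and 3.51 (log2 3.51 ± 0.55, edgeR adjusted p = 0.00157). Sdcbp changed by 0.26 log2 and was not called. fantom3_C130085H20, 319 bases upstream of the cell-cycle kinase gene Wee1 on the opposite strand, went from 0.195, 0.109 and 0.335 to 1.45, 1.28 and 1.32 (log2 2.60 ± 0.67, edgeR adjusted p = 0.0131, and 0.0508 without Q-HSC 2).

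A locus over Tcrg-V5 was among the falls. fantom3_A430104H18 (chr13:19192524-19213594, +), spliced over an exon of the T-cell receptor gamma segment Tcrg-V5, stood at 8.89, 11.7 and 3.80 CPM in Q-HSC and 0.305, 0.731 and 0 in F-HSC (log2 -4.47 ± 0.89, edgeR adjusted p = 0.00445). In Q-SEC it was at 0.539 CPM or less. Summed T, NK and B markers (5 of 5) were 48.8 to 189 CPM in Q-HSC, 7.0 to 63.3 in F-HSC and 9.35 to 20.9 in Q-SEC. The part of lymphocyte numbers in this fall was not tested.

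The other falls named in this fraction included a divergent locus and several of low level. fantom3_9330119M12, whose start lies in the Enpp4 promoter printed above, went from 2.93, 2.17 and 2.01 CPM in Q-HSC to 0, 0.274 and 0.110 in F-HSC (log2 -4.15 ± 0.81, edgeR adjusted p = 0.00384). Enpp4, a surface nucleotide hydrolase gene, went from 79.3, 64.6 and 88.4 CPM to 37.5, 65.4 and 51.3 (log2 -0.59) and was not called. fantom3_7420431G04 (Gm37381) had 55 reads in Q-HSC and 3 in F-HSC, a ratio of 21.4 (exact counting interval 6.96 to 107; edgeR adjusted p = 0.0129). fantom3_9430027B09 had 50 and 2, a ratio of 29.2 (7.68 to 248; edgeR adjusted p = 0.00347). The gene before it, Bend4, fell by 1.40 on the log2 scale in F-HSC (edgeR adjusted p = 6.2e-04) and by 1.87 in F-SEC (1.9e-04). fantom3_7420422L08, fantom3_I920063H14 and fantom3_C130045D20, the last 2 in introns of long non-coding genes, fell from means of 3.17, 1.77 and 1.77 CPM to 0.132, 0.102 and 0.107.

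The size of the fall differed with the place of a locus relative to GENCODE genes. Loci in exons of protein-coding genes fell least, with a median log2 change in F-HSC of -0.61 over 563 tested, 222 lower and 26 higher. Loci in long non-coding exons had a median of -1.17 (388 tested, 183 lower, 8 higher), loci with no GENCODE gene -1.25 (472, 245, 5) and loci in introns -1.56 (165, 99, 1). In F-SEC the medians of the same classes were -0.48, -0.66, -0.76 and -0.81. Differences between classes were not tested, since the loci of a class share libraries and some share transcripts. Spliced and unspliced loci were alike in the share lower in F-HSC, 140 of 305 (45.9%) and 655 of 1408 (46.5%). In F-SEC fewer of the spliced were lower, 50 of 305 (16.4%) against 325 of 1408 (23.1%).

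**Figure D2:**
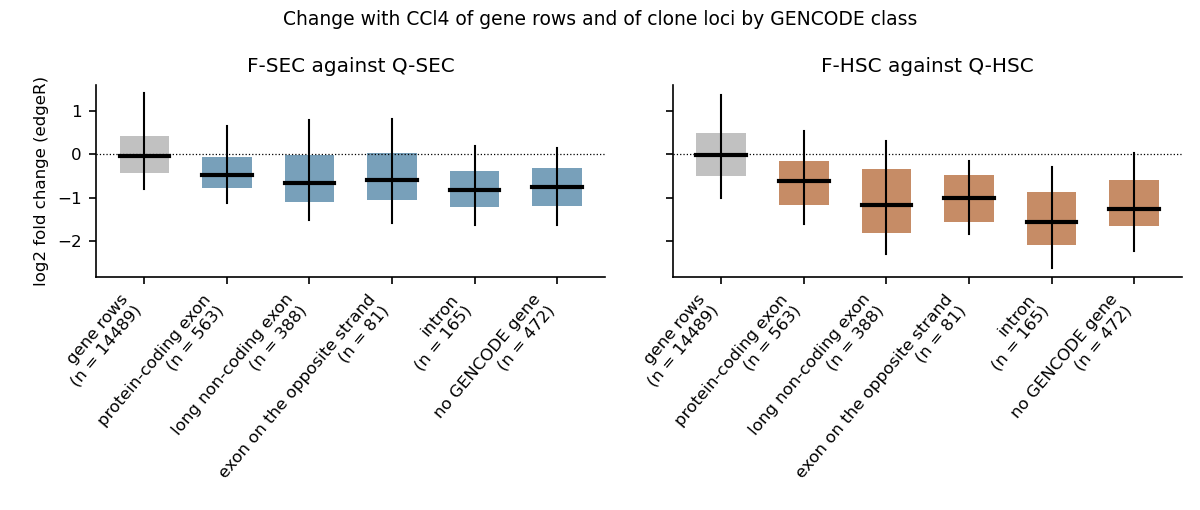
Boxes span the quartiles of the log2 fold change with CCl4, bars the 10th to 90th percentile and thick lines the median, for gene rows and for tested loci by GENCODE class, in SEC (left) and HSC (right). Gene rows, whose counts set the library scaling, centre near 0. The medians of the locus classes run from -0.48 to -0.81 in SEC and from -0.61 to -1.56 in HSC, lowest for introns.

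The gene next to a locus fell less than the locus itself. For loci in protein-coding exons, the nearest tested gene row had a median change of -0.15 in F-HSC, and locus and neighbour were correlated across loci (Pearson r = 0.81, 539 pairs). For loci in long non-coding exons the neighbour median was -0.14 and r was 0.35. For loci with no GENCODE gene they were -0.22 and 0.42. The points share the same 6 libraries and scaling, and are not independent. Within 1 kb of a gene, r was 0.71 for 287 loci downstream on the same strand and 0.39 for 157 upstream on the opposite strand. Of the 795 lower loci, 230 had a neighbour that was also called lower, 395 one that was not called, 30 one that was higher and 140 no tested neighbour.

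**Figure D3:**
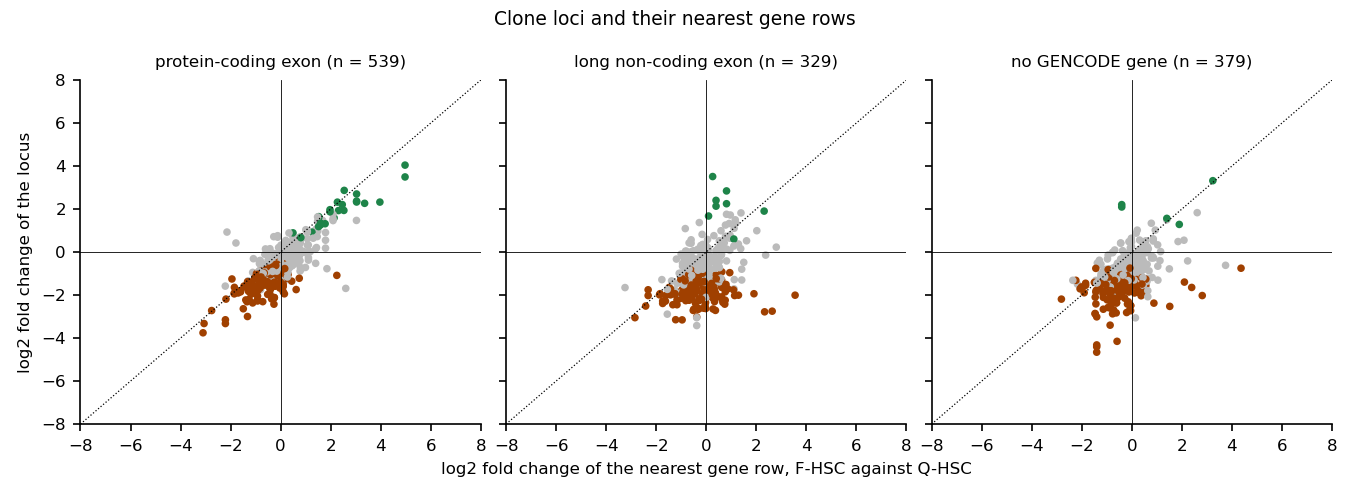
Each point is a tested locus, with the log2 fold change of its nearest gene row in F-HSC against Q-HSC on the x axis and its own on the y axis. Brown points were called lower, green higher and grey not called. In each class most loci lie under the dotted line of equal change, by a median of 0.45 log2 in protein-coding exons (r = 0.81), 0.71 in long non-coding exons (r = 0.35) and 0.78 with no GENCODE gene (r = 0.42).

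Distance from genes went with the share of tested loci called lower, but not with the fold change of summed reads. In F-HSC it was 36.1% of 513 loci within 1 kb of a gene row, 44.2% of 745 at 1 to 10 kb, 62.6% of 318 at 10 to 100 kb and 65.6% of 125 beyond 100 kb, where none was higher. The median log2 change went from -0.67 to -1.59 between the nearest and the farthest bin. In F-SEC the shares were 14.8%, 24.2%, 23.3% and 34.4%. Beyond 100 kb, locus and nearest gene row had r = 0.08 in F-HSC over 69 pairs. Sums over all loci of a bin, tested or not, with 1 locus per cluster, had no such order. From the nearest to the farthest bin, control means were 1.51-, 1.60-, 1.41- and 1.68-fold the CCl4 means in HSC. In SEC they were 1.23-, 1.20-, 1.07- and 1.12-fold, and control and CCl4 libraries overlapped in both bins beyond 10 kb.

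**Figure D4:**
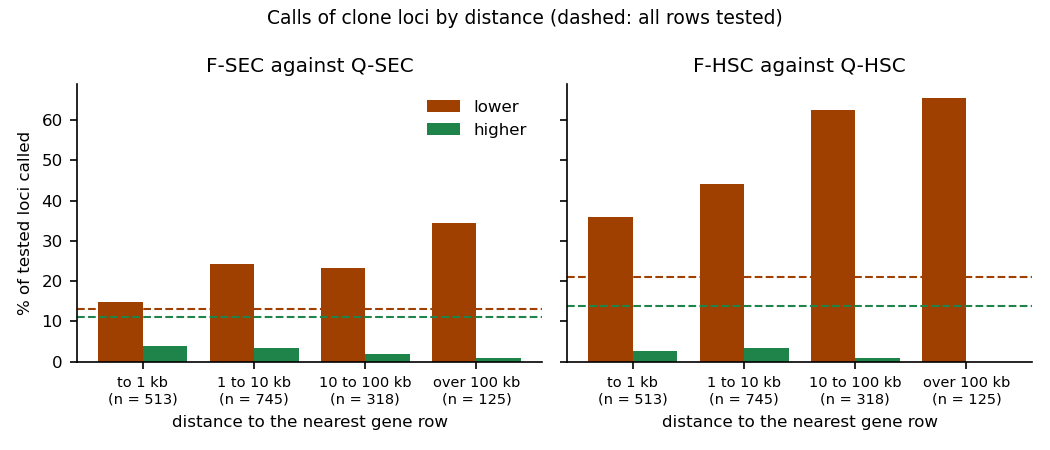
Bars give the percent of tested loci called lower (brown) and higher (green) with CCl4 in 4 bins of distance to the nearest gene row, and dashed lines the percent over all rows tested (13.2% lower and 11% higher in SEC, 21.1% and 13.8% in HSC). The lower share runs from 14.8% to 34.4% in SEC and from 36.1% to 65.6% in HSC.

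The fall was also seen at high levels, where the filter bears less on the result. Among loci with a mean of 10 CPM or more, 100 of 289 (34.6%) were lower and 10 higher in F-SEC, against 1524 (14.9%) and 1139 of 10263 gene rows. In F-HSC 135 loci (46.7%) were lower and 14 higher, against 1992 (19.4%) and 1494 gene rows. The sum over all 7748 loci needs no filter. It was 3.02%, 2.67% and 3.10% of gene-row counts in Q-SEC and 2.85%, 2.08% and 2.45% in F-SEC, which overlap (exact permutation p = 0.2, two-sided). In Q-HSC it was 4.10%, 3.34% and 3.10%, and in F-HSC 1.65%, 2.76% and 2.16%, with no overlap (exact permutation p = 0.1, the smallest that 3 against 3 libraries can give).

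These sums were led by chromosome M rows and count overlapping loci more than once. With 1 locus per cluster and without chromosome M, the share was 1.53%, 1.49% and 1.59% in Q-SEC against 1.40%, 1.17% and 1.35% in F-SEC, and 1.56%, 1.35% and 1.47% in Q-HSC against 0.850%, 1.07% and 0.912% in F-HSC. Neither pair overlapped (exact permutation p = 0.1), with control means 1.18-fold and 1.54-fold the CCl4 means. By class, the intron loci had the largest fold in HSC, at 0.0657% ± 0.00507 (SD, n = 3) in Q-HSC and 0.0258% ± 0.00448 in F-HSC, a 2.54-fold difference, and a 1.45-fold one in SEC. Loci in long non-coding exons differed 1.90-fold in HSC and 1.48-fold in SEC, and those in protein-coding exons 1.51-fold and 1.30-fold. Loci with no GENCODE gene were 0.580% ± 0.0116 in Q-SEC and 0.589% ± 0.0996 in F-SEC (exact permutation p = 1.0), and 1.39-fold lower in F-HSC than Q-HSC. That class is led by abundant loci such as fantom3_A130040M12 (log2 0.13 ± 0.22 in F-SEC, not called), while the median of its tested loci in F-SEC was -0.76.

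**Figure D5:**
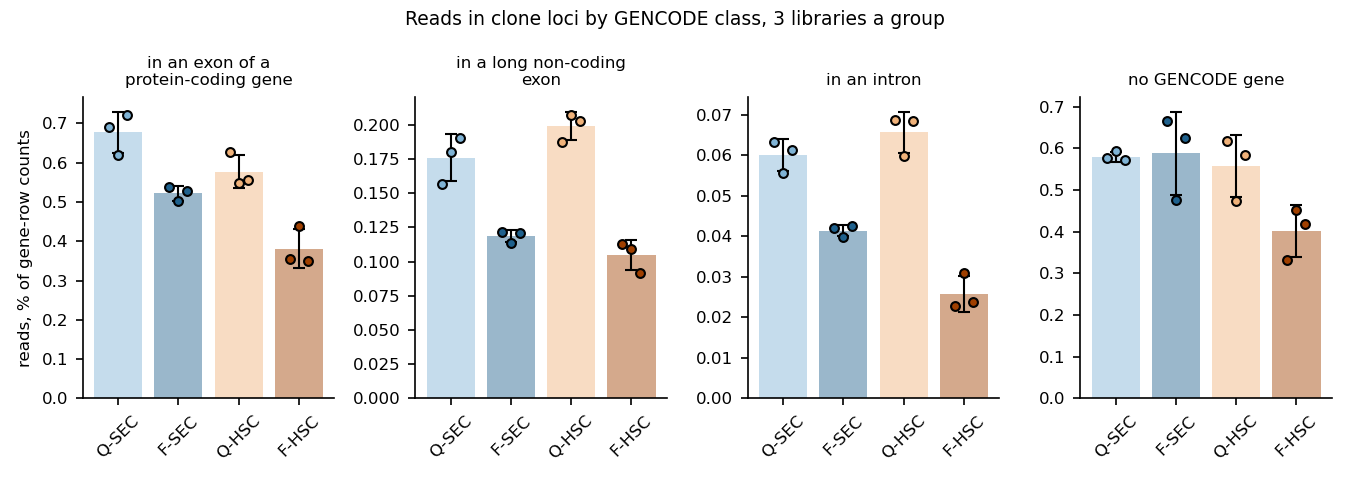
Points are libraries, bars means and error bars SD (n = 3) of reads in the loci as a percent of gene-row counts, with 1 locus per cluster, for 4 GENCODE classes (protein-coding exon, long non-coding exon, intron, no GENCODE gene). In these 4 panels the CCl4 points lie below the control points of the same fraction except for SEC loci with no GENCODE gene (0.580% and 0.589%).

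A like fall was measured outside these loci, in clone rows that lie within a gene's span but touch no GENCODE exon, and so mark intron sequence. Over 8146 such rows, with 1 per cluster and without the most abundant row, the share of gene-row counts was 0.701% to 0.797% in Q-SEC and 0.442% to 0.502% in F-SEC. It was 0.871% to 0.980% in Q-HSC and 0.345% to 0.440% in F-HSC, with no overlap in either fraction. With that row included the groups overlapped, at 1.87% to 4.26% in Q-SEC and 1.99% to 3.48% in F-SEC, and at 1.78% to 5.06% in Q-HSC and 0.683% to 4.93% in F-HSC. Over the 2181 of these rows that were tested, the median log2 change came to -0.88 for the SEC fraction and -1.62 for the HSC fraction, against -0.31 and -0.43 for clone rows in gene spans that overlap an exon. The omitted row, on chromosome 16, took 2771092 reads. Its share ran in the order of the Rn45s share in Q-SEC, Q-HSC and F-HSC, but not in F-SEC. In F-HSC it was 0.338%, 3.02% and 4.55%, beside Rn45s shares of 1.20%, 7.62% and 12.6%. In F-SEC it was 1.54%, 3.04% and 1.73%, beside 5.12%, 7.45% and 4.50%. The part of ribosomal precursor reads in this row was not tested. The part of precursor RNA or of DNA in the clone loci was not tested.

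Between fractions, 4 loci differed in their CCl4 change. The test of the difference called 3 higher in SEC than HSC and 1 lower, where 0.525% and 0.204% of all rows tested were called. An unadjusted edgeR p under 0.05 was reached by 220 of 1714 loci, against 2803 of all 16203 rows tested. DESeq2 called 46, limma-voom 1 and edgeR with the replicate number as a block 9. The median difference was 0.37 log2 over tested loci. fantom3_A730060K18 (chr7:25087352-25088542, -), in a 3′ exon of Pou2f2, a B-cell and macrophage transcription factor, went from 0.850, 1.05 and 1.08 CPM in Q-SEC to 2.18, 2.52 and 1.24 in F-SEC, and from 20.6, 22.7 and 26.7 in Q-HSC to 5.79, 7.40 and 4.94 in F-HSC. It rose in one fraction and fell in the other, with a difference of 2.94 ± 0.40 log2 (edgeR adjusted p = 0.0190), and the Pou2f2 row had 3.29. The call was lost without Q-SEC 2 (0.0717), Q-SEC 3 (0.0722), F-SEC 2 (0.0583) or F-HSC 3 (0.0738).

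fantom3_F830216H09 (chr10:51526340-51531159, +), the spliced lincRNA Gm46224, lies 29729 bases past Lilrb4, an inhibitory receptor gene of myeloid cells. It was at 0.425, 0.418 and 0.108 CPM in Q-SEC and 0.870, 1.16 and 0.516 in F-SEC, and fell from 4.40, 5.76 and 8.04 in Q-HSC to 1.75, 1.19 and 0.769 in F-HSC (difference 3.65 ± 0.70 log2, edgeR adjusted p = 0.0445). Lilrb4 was at 69.4, 72.6 and 134 CPM in Q-HSC and 121, 55.7 and 48.0 in F-HSC, a change of -0.29 that was not called. The call for the difference was kept without library 1 of Q-SEC, Q-HSC or F-HSC and lost in the other 9 omissions (edgeR adjusted p from 0.0716 to 0.125), with the replicate block (0.0513) and in limma-voom (0.0765). Macrophage markers were 193 to 729 CPM in Q-SEC and 1088 to 2366 in F-SEC, and overlapped between Q-HSC and F-HSC. Their part in this difference was not tested.

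Between the fractions of control liver, 176 loci were higher in Q-SEC and 146 higher in Q-HSC (edgeR adjusted p under 0.05), where 14.8% and 13.7% of all rows tested were called. fantom3_9530052O14 (chr2:133568237-133571916, +), spliced, outside GENCODE genes and 5341 bases past Bmp2, the endothelial ligand that sets hepcidin and iron balance, was at 3.19, 3.66 and 4.31 CPM in Q-SEC and 0.684, 0.978 and 0.447 in Q-HSC (log2 2.38 ± 0.40, edgeR adjusted p = 0.00158). It fell in F-SEC by 2.15 ± 0.39 on the log2 scale (edgeR adjusted p = 0.00449), and Bmp2 fell by 1.41. fantom3_4930431D12, the lincRNA Gm26802 past the immediate-early gene Fosb, was 2.46 ± 0.48 log2 higher in Q-SEC (edgeR adjusted p = 0.00344), and Fosb was 2.47 higher. fantom3_A330102C12 (chr15:82383784-82386694, +) stood at 5.31, 8.57 and 6.58 CPM in Q-SEC and 1.56, 1.09 and 0.447 in Q-HSC (log2 2.70 ± 0.48, edgeR adjusted p = 0.00198), and fantom3_F630314A02 (Gm43181) was 2.82 ± 0.56 log2 higher.

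Several loci of Q-HSC had no read in Q-SEC. fantom3_I920063H14 and fantom3_A430056H03 (Gm49087) lie near each other on chromosome 14, by the eosinophil ribonuclease and angiogenin genes, and fantom3_I920063H14 was at 1.66, 1.30 and 2.35 CPM in Q-HSC. fantom3_A430056H03 was at 0.977, 2.50 and 1.23 CPM there. With Q-SEC set at 3 reads per library these were at least 5.56-fold and 4.92-fold higher in Q-HSC (edgeR adjusted p = 0.00381 and 0.00356). Both fell in F-HSC, to 0.305 CPM or less and 0.329 CPM or less. fantom3_D630046H12, over the pseudogene Gm44259, and fantom3_B130019H15, in an exon of Abr, were at least 6.65-fold and 5.77-fold higher in Q-HSC.

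Between the fractions of CCl4 livers, 232 loci were higher in F-SEC and 56 higher in F-HSC (edgeR adjusted p under 0.05), where 12.6% and 11.7% of all rows tested were called. Higher in F-SEC were fantom3_D630033G03 in an intron of Sptbn1, a spectrin gene (log2 3.04 ± 0.69, edgeR adjusted p = 0.00921, and 2.0 and 0.0651 with only libraries 2 and 3), fantom3_A330102C12 (2.68 ± 0.56, 0.00665) and fantom3_C730004C11, 39217 bases past Maf (2.24 ± 0.55, 0.0140, and 0.0586 with only libraries 2 and 3). fantom3_9530013E20, the antisense gene Gm48435, was 2.14 ± 0.66 log2 higher (edgeR adjusted p = 0.0368), a call lost without Q-SEC 2 (0.0516), F-SEC 1 (0.0523), F-SEC 2 (0.0830), F-SEC 3 (0.104), Q-HSC 2 (0.0524) or F-HSC 3 (0.0600), and with only the libraries compared (0.0814). Higher in F-HSC were loci past Abca6 and Aox3. fantom3_C730021A03 (chr11:110173890-110176748, -), 73 bases past the transporter gene Abca6, was at 8.15, 20.6 and 28.5 CPM in F-HSC and 0.696, 2.32 and 3.71 in F-SEC (log2 3.09 ± 0.72 lower in F-SEC, edgeR adjusted p = 0.0109). fantom3_C730009F08, past the aldehyde oxidase gene Aox3, was at 1.52, 3.84 and 2.64 and at 0.087, 0.387 and 0.206 (log2 3.50 ± 0.66 lower, edgeR adjusted p = 0.00403). fantom3_2210413J24 (Gm17753) was at 1.90, 5.12 and 6.70 and at 0.348, 0.290 and 0.516. fantom3_C920021A13, the spliced lincRNA Gm36723, was at 0.457, 3.47 and 1.32 in F-HSC and 0.174, 0.290 and 0 in F-SEC (log2 3.36 ± 0.89 lower, edgeR adjusted p = 0.0202), a call lost without F-SEC 1 (0.0600), F-SEC 3 (0.0644) or F-HSC 2 (0.0768), and in limma-voom (0.0743). It was at 13.9, 15.1 and 6.48 CPM in Q-HSC. Hepatocyte markers had the same order, at 10496 to 25438 CPM in F-HSC and 1847 to 2962 in F-SEC, whose part was not tested. The counts of called loci were 206 without Q-HSC 2 and 199 without Q-HSC 3 in control livers, and 168 without F-SEC 3 and 168 without F-HSC 3 in CCl4 livers.

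Loci at the edge of the rule were of low level on both sides of it. The 309 loci within 100 bases of a gene row had a median level of 0.252 CPM, and the 78 tested had a median log2 change of -0.53 in F-SEC and -0.74 in F-HSC. The 179 clone rows left out because they overlapped a gene row by 100 bases or less had 0.414 CPM, and the 76 tested had -0.28 and -0.39.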

How the data were processed

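Total RNA of 12 libraries (4 groups of 3) was sequenced, and the reads were converted with bcl2fastq and aligned to mm10 with TopHat2 2.0.13, per the labels. The counting tool and its use of strand are not given in the sources used here. The authors deposited raw read counts per gene or cDNA clone row, with the length of each row in bases, and RPKM values per library, which were not used. Loci were compared with GENCODE M21 (GRCm38, the same assembly as mm10), where 99.4% of 21852 gene rows with a shared symbol overlapped that gene. No genome sequence was used, so repeat content was not analysed here.

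The counts of 23472 gene rows and 7748 loci were fitted together with edgeR 4.0.16 (quasi-likelihood, robust, R 4.3.3) with 1 coefficient per group, after a filter on low counts, with library totals and TMM factors from gene rows alone. P-values were adjusted by Benjamini-Hochberg over all 16203 rows tested. The SE of a log2 change is approximate. It was taken as the absolute change divided by the square root of the quasi-likelihood F. Calls were checked on simulated data with 200 changed loci and no other changed row. For F-SEC against Q-SEC, 35% of 4-fold and 3% of 2-fold changes were recovered. For the difference of the CCl4 changes the shares were 12% and 0%. False calls were 2.56% to 11.1% of the calls, by comparison. Far more rows were called in the real data, so the adjusted threshold was stricter in the simulation. These recovery shares therefore do not carry over to the real data. Counting intervals and limits cover counting error only, since reads carried no molecular identifiers. Levels of 12 libraries give no more precision than their number allows. No 2 libraries agreed within sampling noise.

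Named loci were 1 per cluster. They were the 10 highest per kb, the 8 largest called rises and falls of each fraction with non-overlapping groups and at least 1 CPM, 4 each way between fractions, and the largest called differences. Of the named loci, 2 are not reported here. The loci, lists and rules were chosen with earlier results of these data known. Titles number only the second and the third library of a group, and the unnumbered one was called 1. Same-numbered libraries deviated together in Q-SEC and F-SEC (r = 0.31, 0.25 and 0.16) and in F-SEC and F-HSC (0.47, 0.45 and 0.43). In Q-SEC and F-HSC r was 0.32, 0.14 and 0.22. There, r with an F-HSC library of another number reached 0.193 for Q-SEC 2 and 0.215 for Q-SEC 3. No link by number is thus shown at these numbers. The same-number r of these pairs of groups were all over 0.1, which did not hold at every number in the other pairs of groups. Alternatives were DESeq2 1.42.0, limma-voom 3.58.1, RLE scaling, other filters, totals and thresholds, a replicate block and each library left out.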

Additional observations from a re-analysis of the deposited data

Results flagged for a closer look

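The CCl4 change differed between the fractions for 4 loci by the interaction test in edgeR (SEC minus HSC, log2). The value was 2.94 for fantom3_A730060K18 in Pou2f2 and 3.65 for fantom3_F830216H09 in Gm46224. It was 2.51 for fantom3_C730029A08 in a 3′ exon of Paqr9 and -1.42 for fantom3_B430117H04 in Gm44250, 366 bases from Pon3. The edgeR adjusted p of the last 2 was 0.0452 and 0.0474. With each of the 12 libraries left out in turn, fantom3_C730029A08 lost its call in 8 omissions (edgeR adjusted p from 0.0727 to 0.148) and fantom3_B430117H04 in 10 (0.0549 to 0.148), and both lost it in limma-voom (0.119 and 0.0654).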

How the results depend on the processing

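Over 188 comparisons of a count or share with an alternative, 154 were within the set limits, 31 moved and 3 reversed. At an adjusted p under 0.01 the called loci were 112 for the CCl4 change in SEC, 404 for that in HSC, 0 for the difference, 150 between control fractions and 87 between CCl4 fractions. With the replicate block they were 483, 879, 9, 354 and 322, so that the block moved only the difference by over 1.5 times. The difference had 46 calls with DESeq2, 1 with limma-voom and 66 with only libraries 2 and 3 (chosen after seeing the data). It was called for 0.142% of tested loci with 1 per cluster and 0% with no GENCODE gene. F-SEC against F-HSC had 183 calls with only the libraries compared. With 1 library left out, calls ranged from 178 to 423, 581 to 899, 0 to 25, 199 to 362 and 168 to 300 in the order above. The Q-SEC minus Q-HSC share of counts, -0.585 percentage points, was 0.0302 beyond 10 kb and 0.0769 with 1 locus per cluster without chromosome M (chosen after seeing the data). The F-SEC minus F-HSC share, 0.263, ranged from -0.00727 (without F-HSC 1) to 0.549. The other shares ranged from -0.666 to -0.280 (F-SEC minus Q-SEC), -1.60 to -1.02 (F-HSC minus Q-HSC) and -0.793 to -0.289 (Q-SEC minus Q-HSC). Of 50 named results, 36 kept an edgeR, DESeq2 or limma-voom adjusted p under 0.05 in every alternative fit that tested the locus. The other 14 lost it in at least 1, with no reversal. The stricter threshold of 0.01 and a 2-fold limit are not part of this count. The causes were not tested. The soft-masked repeat alternative was not run. Levels near 3 reads limit most loci, and 71.9% of tested loci stood under 5 CPM.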

Other observations

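fantom3_4932438E20 on chromosome 18 and fantom3_I1C0044J10 on chromosome X are the first and the third largest of the falls named in the SEC fraction. The pair was chosen after its values were seen. Reads of the first over the second were 4.13, 2.72 and 3.33 in Q-SEC, 2.75, 2.97 and 3.17 in Q-HSC, 1.71, 3.07 and 1.82 in F-SEC and 3.22, 2.93 and 0.933 in F-HSC. In F-HSC 3, which gave the lowest ratio, the loci had 14 and 15 reads.

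fantom3_C730029A08, in a 3′ exon of Paqr9, a membrane progestin-receptor family gene, had the third largest called difference of the CCl4 change. It was at 35.1, 43.7 and 69.8 CPM in Q-HSC and 7.69, 12.8 and 10.2 in F-HSC, and at 1.51 to 3.29 CPM in the 6 SEC libraries. fantom3_B430117H04, in Gm44250, had the opposite order, at 19.1, 20.1 and 21.8 CPM in Q-SEC and 8.44, 13.2 and 13.2 in F-SEC, against 15.2, 12.9 and 17.8 in Q-HSC and 21.3, 26.0 and 22.4 in F-HSC. Both overlap other clone loci and were not the highest of their cluster.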
